A study of Mus musculus with 24 samples.

Results

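The 55 genes described here act in G2 and in mitosis. They run from Mki67, the proliferation marker Ki-67, to the transcription factors Foxm1 and Mybl2. They were taken by name from a list of mouse gene symbols, which was chosen with earlier results of these data known. All 55 were found among the 49315 gene identifiers of the count table, and all 55 were among the 17579 genes that passed the filter on low counts.

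RNA was sequenced from microglia, the resident macrophages of the brain, in 24 mouse libraries, with 3 biological replicates in each of 8 groups. The cells had been sorted by flow cytometry for intermediate CD45 and for CD11b. Every mouse received tamoxifen. The adult mice were either Cre+, with a tamoxifen-activated Cre recombinase (creERT2) at the Cx3cr1 locus that deletes Dicer1, the enzyme that cuts microRNA precursors, or Cre-, without the recombinase. Naive mice of each genotype had tamoxifen only, labelled as given at the start. Demyelination mice also had tamoxifen at the start, for which the study text gives 4 to 5 weeks without saying from when, and 6 weeks of cuprizone, a copper chelator that kills oligodendrocytes. The first pair of remyelination groups had tamoxifen at the start, 6 weeks of cuprizone and 6 weeks of normal diet. The second pair had the same diets, with tamoxifen at the peak, in week 5 of cuprizone. Cre- mice carry no creERT2 at Cx3cr1, so the recombinase insertion and the deletion of Dicer1 cannot be told apart in any Cre+ minus Cre- difference.

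Libraries held 8.87 to 44.53 M (mega) counts, and all 12 remyelination libraries were shallower than all 12 others. The whole-gene level of Dicer1 in Cre+ libraries was 57.2% to 175% of the mean of the state's Cre- libraries, and no source used here gives the deleted exons, so this level does not check the deletion. Cx3cr1 stood at 41.5% to 59.3% of the Cre- mean in 9 Cre+ libraries, and at 2.18%, 1.87% and 1.61% in naive Cre+ replicate 1 and demyelination Cre+ replicates 1 and 3, which stand apart from the other libraries of their label. The 12 microglia markers summed to at least 34890 CPM (counts per M counts, scaled by edgeR's TMM factors) in every library. The 9 markers of T, NK and B cells summed to at most 7.241 CPM, with Gzma at 0 in 20 libraries and Cd3e at 0 in 10.

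A cell enters mitosis when Cdk1 bound to cyclin B becomes active. The kinases Plk1, Aurka and Aurkb then drive spindle assembly, condensins and topoisomerase II compact and untangle the chromosomes, and the checkpoint proteins Bub1, Bub1b and Ttk hold back anaphase until every kinetochore is attached. The genes for these proteins are read in a burst in late S phase and G2, under Foxm1, B-Myb (Mybl2) and the MuvB complex, which binds a cell cycle homology region (CHR) in their promoters, often beside CCAAT boxes bound by NF-Y. Microglia in the adult brain divide rarely and can proliferate after injury.

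Promoters are shown for 5 members whose RNA moved together, Cdk1, Cdc20, Kif11, Top2a and Birc5, and for Ncaph, which moved differently. The first 4 hold marked motifs, and Birc5 and Ncaph hold none. The lines give the 150 bases before the RefSeq transcript start, 5′ to 3′ on the gene's own strand, from the RefSeq promoter table of GRCm38.p6. Capitals mark TTTGAA and its other-strand reading TTCAAA, the form of the CHR found most often, the variant form TTCGAA, and the CCAAT box, which reads as ATTGG when it lies on the other strand.
Cdk1 (chr10:69352913-69353062, minus strand): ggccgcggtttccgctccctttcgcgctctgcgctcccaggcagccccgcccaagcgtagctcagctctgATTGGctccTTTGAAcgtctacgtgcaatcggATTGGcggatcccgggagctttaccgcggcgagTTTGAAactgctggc
Cdc20 (chr4:118437344-118437493, minus strand): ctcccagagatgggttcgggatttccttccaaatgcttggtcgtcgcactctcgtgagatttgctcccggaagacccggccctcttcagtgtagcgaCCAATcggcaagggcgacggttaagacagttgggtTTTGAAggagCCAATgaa
Kif11 (chr19:37376232-37376381, plus strand): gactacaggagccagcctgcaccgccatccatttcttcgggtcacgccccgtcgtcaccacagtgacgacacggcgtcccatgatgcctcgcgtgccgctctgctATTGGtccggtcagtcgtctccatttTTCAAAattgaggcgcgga
Top2a (chr11:99024190-99024339, minus strand): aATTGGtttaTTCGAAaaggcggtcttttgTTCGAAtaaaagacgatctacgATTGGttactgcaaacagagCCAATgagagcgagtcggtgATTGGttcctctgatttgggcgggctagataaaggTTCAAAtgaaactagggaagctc
Birc5 (chr11:117849087-117849236, plus strand): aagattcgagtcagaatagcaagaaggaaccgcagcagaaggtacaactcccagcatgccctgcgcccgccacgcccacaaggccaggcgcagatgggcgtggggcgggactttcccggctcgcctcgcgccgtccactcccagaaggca
Ncaph (chr2:127133955-127134104, minus strand): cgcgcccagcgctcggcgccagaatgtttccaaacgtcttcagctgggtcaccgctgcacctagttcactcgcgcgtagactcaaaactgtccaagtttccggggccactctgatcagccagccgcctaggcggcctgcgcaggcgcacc
In the 300-base windows (250 before and 50 after the start), 44 of the 55 members had an entry, with 46 windows in all. TTTGAA on either strand was found in 34 of the 46 (73.9%), against 17.9% of all 32851 windows of the table. TTCGAA, which reads the same on both strands, was found in 4 (8.7%), against 1.56%. CCAAT on either strand was found in 35 (76.1%), against 37.4%, and both TTTGAA and CCAAT in 30 (65.2%), against 6.95%. Each motif was counted by itself, whether or not it overlapped another. Nuf2, Nusap1, Ncaph, Melk, Mybl2, Pttg1 and Birc5 held none of the 3 in these windows. Of these, Birc5, Nuf2, Nusap1 and Melk were called higher in Cre+ microglia in all 3 states with rises described below, Mybl2 in 1 of them, and Ncaph and Pttg1 in none. The RefSeq start lay within 100 bases of the start of the gene as counted in 37 of the 44 members. In the other 7 it lay inside the gene, by 270 bases in Pttg1, 328 in Kif4, 629 in Cdca3, 2394 in Cdca8, 3867 in Kif2c, 115 in Ncapd2 and 109 in Cenpa, so the windows of these members may miss the bases before their first start. These are letter matches, with no measurement of binding.

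The members' summed level differed most between the genotypes in demyelination and in remyelination with tamoxifen at the peak. The sum of the 55 members was 253.2, 286.1 and 286.1 CPM in naive Cre- libraries and 213.6, 628.1 and 576.3 CPM in naive Cre+ libraries. In demyelination it was 459.1, 469.7 and 484.9 CPM in Cre- and 1141, 1086 and 1047 CPM in Cre+ libraries. Both demyelination groups were tight and stood apart, whereas the naive Cre+ replicates did not lie together. With tamoxifen at the start, remyelination libraries held 185.8, 247.4 and 233.4 CPM in Cre- and 183.7, 194.7 and 175.7 CPM in Cre+. With tamoxifen at the peak they held 176.2, 166.6 and 176.5 CPM in Cre- and 991.3, 796.9 and 903.2 CPM in Cre+. All 3 Cre+ libraries of the peak group were thus above every other remyelination library. Each library's sum is from bulk RNA, so more cells in G2 or mitosis and more of these RNAs per cell cannot be told apart.

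The module score, the mean of the members' log2(CPM + 1), compresses the most abundant members. It was 1.97 ± 0.11 (SD, n = 3) in naive Cre- and 2.81 ± 0.89 (SD, n = 3) in naive Cre+ libraries, where the 3 replicates scored 1.79, 3.38 and 3.27. In demyelination it was 2.82 to 2.95 in Cre- and 4.09 to 4.2 in Cre+. In remyelination Cre+ libraries it was 1.5 to 1.76 with tamoxifen at the start and 3.72 to 4.04 with tamoxifen at the peak. The SD of the naive Cre+ group was the widest of the 8 groups.

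**Figure D1:**
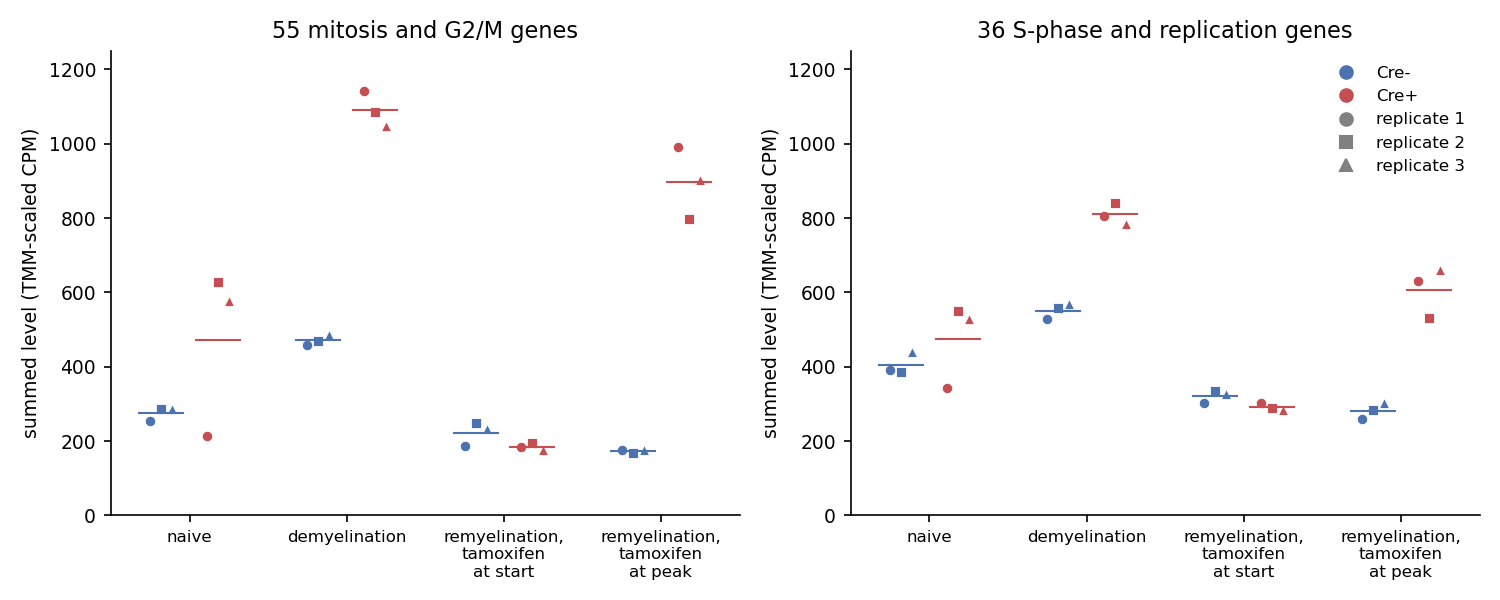
Summed level (TMM-scaled CPM) of the 55 members (left) and of 36 S-phase and replication genes (right) in each of the 24 libraries, with the mean of each group as a line. Naive Cre+ replicate 1 lies at 213.6 CPM, below the naive Cre- libraries, and replicates 2 and 3 at 628.1 and 576.3 CPM.

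The members outweighed the 36 S-phase and DNA replication genes only in Cre+ libraries. The ratio of the members' sum to the S-phase sum was 0.585 to 0.871 in the 12 Cre- libraries and 0.61 to 0.674 in the Cre+ libraries with tamoxifen at the start. It was 1.29 to 1.41 in demyelination Cre+ libraries and 1.37 to 1.57 in peak Cre+ libraries. In naive Cre+ it was 0.624 in replicate 1, 1.14 in replicate 2 and 1.09 in replicate 3. This ratio does not depend on the scaling of a library, since both sums are divided by the same size. In naive Cre+ libraries the excess rested on Ncaph and Pttg1. Without these 2 genes the members summed to 536.9 and 489.2 CPM in replicates 2 and 3, below S-phase sums of 549.2 and 528.2 CPM. In demyelination Cre+ they summed to 963.6 to 1055 CPM against 785.1 to 840.8 CPM. In peak Cre+ they summed to 736 to 931.7 CPM against 531.4 to 660.7 CPM.

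In naive mice, 45 of the 55 members rose in Cre+ microglia and 1 fell (edgeR's quasi-likelihood F test, Benjamini-Hochberg adjusted p of at most 0.05 over all genes tested). Of all genes tested, 14.7% were called higher and 13.7% lower. The members' median log2 fold change was 1.52, a 2.87-fold rise, against a median of -0.01 over all genes. In only 7 members did all 3 Cre+ libraries exceed all 3 Cre- libraries, which 19.7% of all genes tested did. Cre+ replicate 1 was above the range of the Cre- libraries in 7 members, inside it in 24 and below it in 24, with a median log2 ratio of -0.17 to the Cre- mean. Replicates 2 and 3 were above that range in 53 and 52 members, with median log2 ratios of 1.55 and 1.40. Replicate 1 is the naive library in which Cx3cr1 was at 2.18% of the Cre- mean, and its part in the result was not tested. Summed markers of other cells also stood apart between the genotypes in naive mice. The 6 astrocyte markers summed to 382.6 to 463.4 CPM in Cre- against 247.7 to 295.2 CPM in Cre+ libraries, with 2 called lower by edgeR. Slc1a3 made up most of this sum, at 328.3, 365.1 and 344 CPM in Cre- and 206.5, 251.2 and 247 CPM in Cre+. Aqp4, Aldh1l1 and Gja1 were also lower in every Cre+ library, while Gfap and Slc1a2 overlapped. The 7 markers of border-associated macrophages summed to 20.65 to 28.05 CPM against 15.3 to 19.42 CPM, with 1 called higher and 1 lower. Of the 12 microglia markers 3 were called lower. The part of these shifts in the members' rise was not tested. In demyelination, replicates 1 and 3 had Cx3cr1 at 1.87% and 1.61%, and 53 members lay above the Cre- range in each.

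**Figure D2:**
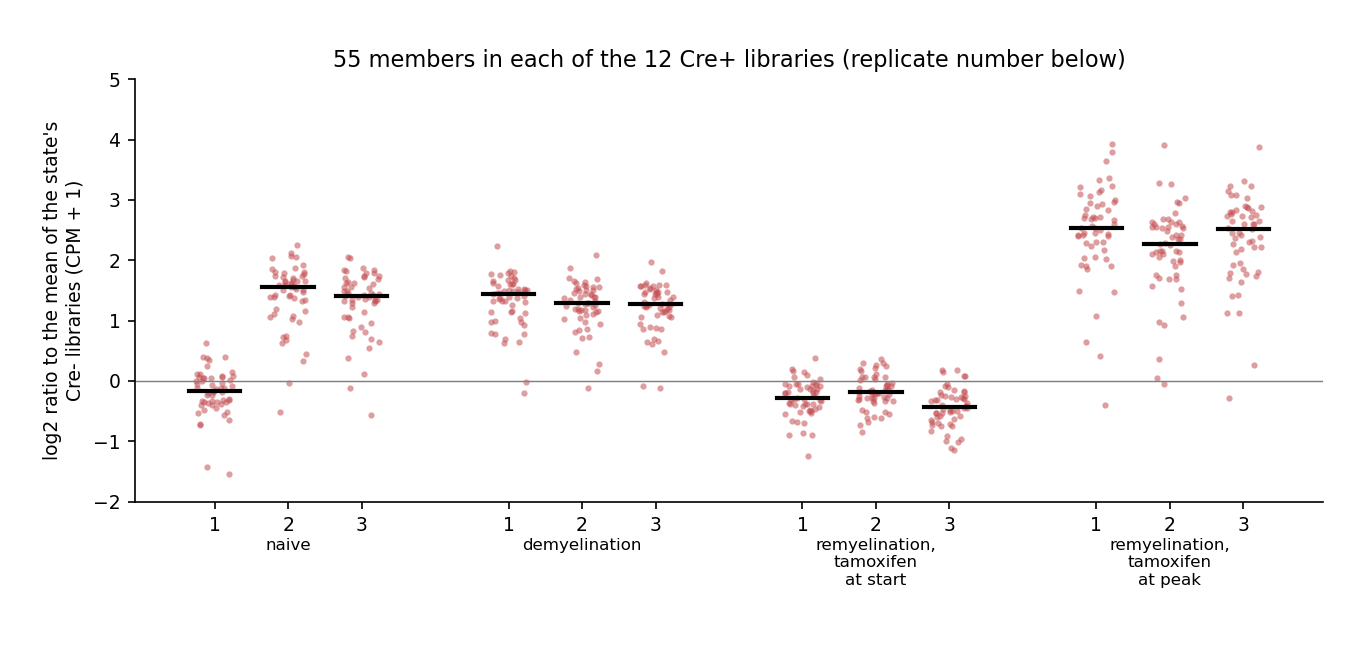
Each point is 1 of the 55 members in 1 Cre+ library, as the log2 ratio of CPM + 1 to the mean of the Cre- libraries of the same state, and the black line is the median. Naive Cre+ replicate 1 has a median of -0.17 and replicates 2 and 3 have medians of 1.55 and 1.40, while the 3 demyelination libraries have 1.44, 1.29 and 1.27.

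All 10 cyclins and mitotic kinases were called higher in naive Cre+ microglia. Ccnb1, cyclin B1, was at 3.07, 3.79 and 3.79 CPM in Cre- libraries and 3.56, 14.9 and 13.7 CPM in Cre+ libraries. Cdk1, its kinase, was at 5.49, 6.04 and 4.82 CPM in Cre- and 5.94, 12.9 and 11.6 CPM in Cre+. For both genes replicate 1 lay within the Cre- range and replicates 2 and 3 above it. Their log2 fold changes were 1.60 (SE 0.34, edgeR adjusted p = 0.00144) and 0.91 (SE 0.21, edgeR adjusted p = 0.00186). Plk1, which acts from mitotic entry to cytokinesis, was at 1.87, 1.64 and 2.51 CPM in Cre- and 2.11, 8.34 and 6.88 CPM in Cre+. Aurka, the spindle pole kinase, was at 1.70, 1.80 and 2.31 CPM in Cre- and 2.86, 7.88 and 7.08 CPM in Cre+. Aurkb, the kinase of the chromosomal passenger complex, was at 2.47, 1.54 and 1.95 CPM in Cre- and 2.81, 7.81 and 6.58 CPM in Cre+. Aurka and Aurkb exceeded the Cre- libraries also in replicate 1, by far less than in the other replicates. Log2 fold changes were 1.54 for Plk1, 1.62 for Aurka and 1.57 for Aurkb (edgeR adjusted p = 0.000849, 0.000188 and 0.000306).

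Members with other roles followed in the same libraries. Mki67, which coats mitotic chromosomes, was at 2.80, 3.63 and 4.65 CPM in naive Cre- and 3.46, 18.2 and 18.4 CPM in Cre+ libraries. Top2a, topoisomerase II alpha, was at 5.16, 6.76 and 6.83 CPM in Cre- and 4.82, 30.6 and 29.0 CPM in Cre+. Birc5, survivin of the passenger complex, was at 1.98, 1.96 and 2.28 CPM in Cre- and 2.25, 8.10 and 6.73 CPM in Cre+. In all 3 genes replicate 1 did not exceed the highest Cre- library. Log2 fold changes were 1.85 for Mki67 (SE 0.39, edgeR adjusted p = 0.00169), 1.78 for Top2a (SE 0.44, edgeR adjusted p = 0.00569) and 1.47 for Birc5 (SE 0.32, edgeR adjusted p = 0.00133). Fitted on the 6 naive libraries alone, Mki67, Top2a and Ccnb1 did not pass (edgeR adjusted p = 0.0834, 0.106 and 0.0583).

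The 3 members with the greatest fitted rise in naive Cre+ microglia were low in the controls. Cdc25c, a phosphatase that activates Cdk1, was at 0.165, 0.398 and 0.231 CPM in Cre- and 0.234, 1.84 and 1.96 CPM in Cre+ (log2 fold change 2.27, SE 0.54, edgeR adjusted p = 0.00247). Spc24, a subunit of the Ndc80 kinetochore complex, was at 0.604, 0.424 and 0.792 CPM in Cre- and 1.12, 3.21 and 3.73 CPM in Cre+ (log2 fold change 2.17, SE 0.36, edgeR adjusted p = 7.81e-05). Foxm1, the transcription factor of the G2 programme, was at 1.21, 1.40 and 1.58 CPM in Cre- and 2.71, 7.73 and 7.58 CPM in Cre+ (log2 fold change 2.10, SE 0.33, edgeR adjusted p = 5.24e-05). For Spc24 and Foxm1 all 3 Cre+ libraries, replicate 1 included, lay above the Cre- libraries.

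Ncaph, a condensin subunit, was the member that fell. It was at 48.2, 51.3 and 52.4 CPM in naive Cre- and 16.7, 35.0 and 33.8 CPM in naive Cre+ libraries, with no overlap. Its log2 fold change was -0.82 (SE 0.20, edgeR adjusted p = 0.00404), and -0.56 without replicate 1 (edgeR adjusted p = 0.0103). The other condensin members differed from it and from each other. Ncapg and Ncapd2 were called higher (log2 fold changes 1.60 and 1.23), whereas Smc2 and Smc4, the ATPase subunits, did not pass (log2 fold changes -0.02 and 0.38, edgeR adjusted p = 0.961 and 0.11). Without replicate 1, Smc4 rose (log2 fold change 0.60, edgeR adjusted p = 0.00631).

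The members not called in naive mice were Smc2, Smc4, Cdc25b, Spc25, Incenp, Pttg1, Ckap2l, Kif4 and Mybl2. Pttg1, securin, was the most abundant of the 55 per length of exon in naive Cre- libraries, at 28.9 counts per M and kb, followed by Ncaph at 11.8. The lowest was Cdc25c, at 0.0537. Pttg1 was at 57.7, 62.4 and 53.6 CPM in Cre- and 58.7, 56.2 and 53.3 CPM in Cre+ libraries, which overlapped (log2 fold change -0.05, edgeR adjusted p = 0.808). Called in either direction were 46 members with all libraries, 52 without Cre+ replicate 1 and 30 without Cre+ replicate 2. Fitted alone, the 6 naive libraries gave 14. The fit over all 24 libraries shares 1 spread per gene between groups, whereas the score's SD was 0.89 in naive Cre+ and 0.11 in naive Cre-.

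**Figure D3:**
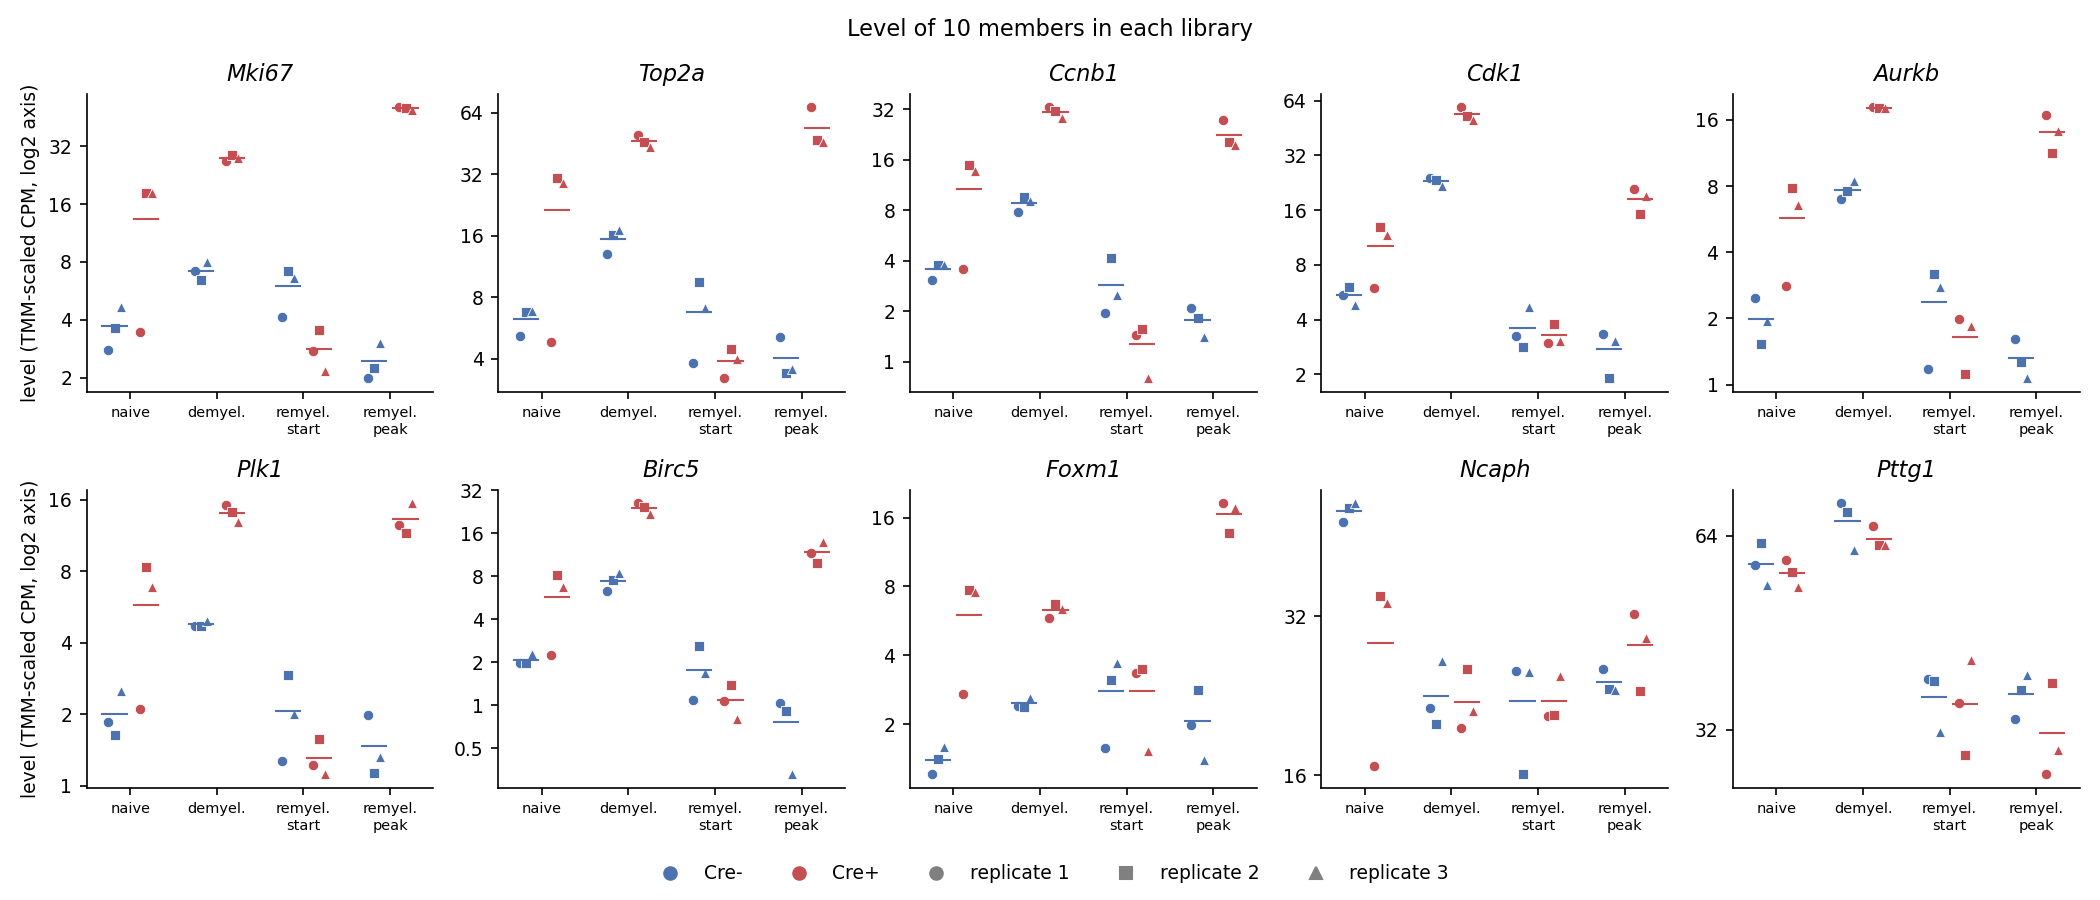
Level (TMM-scaled CPM, log2 axes) of 10 members in the 24 libraries, with replicates by symbol and group means as lines. Mki67 is at 26.9 to 28.9 CPM in demyelination Cre+ and at 49.3 to 51.1 CPM in peak Cre+ libraries, while Ncaph and Pttg1 do not show this pattern.

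In demyelination, 46 of the 55 members rose in Cre+ microglia and none fell, with a median log2 fold change of 1.55 (2.94-fold) against -0.01 over all genes. Among all genes tested, 5.69% were called higher. All 3 Cre+ libraries exceeded all 3 Cre- libraries in 53 members, as in 16.4% of all genes tested. Each Cre+ library lay above the Cre- range in 53 members. The count of calls was 25 without Cre+ replicate 1 and 30 without Cre- replicate 1. It was 37 when the 3 libraries of very low Cx3cr1 were left out, which keeps 1 demyelination Cre+ library and assumes that it varies like the other groups.

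Members of each role rose in demyelination Cre+ microglia. Ube2c, the ubiquitin-conjugating enzyme of the anaphase-promoting complex, was at 5.54, 5.04 and 5.96 CPM in Cre- and 29.8, 26.7 and 24.6 CPM in Cre+ libraries (log2 fold change 2.29, SE 0.35, edgeR adjusted p = 0.000472). Bub1, the checkpoint kinase, was at 3.12, 2.99 and 2.70 CPM in Cre- and 12.9, 11.7 and 11.2 CPM in Cre+ (log2 fold change 2.02, SE 0.44, edgeR adjusted p = 0.0067). Mki67 was at 7.18, 6.42 and 7.95 CPM in Cre- and 26.9, 28.9 and 27.8 CPM in Cre+ (log2 fold change 1.95, SE 0.38, edgeR adjusted p = 0.00416). In these members the lowest Cre+ library was far above the highest Cre- library.

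The entry kinases followed with smaller changes and no overlap. Cdk1 was at 23.9, 23.4 and 21.8 CPM in Cre- and 59.0, 52.9 and 49.9 CPM in Cre+ libraries (log2 fold change 1.23, SE 0.19, edgeR adjusted p = 0.000454). Ccnb1 was at 7.84, 9.64 and 9.08 CPM in Cre- and 32.9, 31.2 and 28.2 CPM in Cre+ (log2 fold change 1.80, SE 0.33, edgeR adjusted p = 0.00212). Plk1 was at 4.71, 4.71 and 4.97 CPM in Cre- and 15.3, 14.2 and 12.96 CPM in Cre+ (log2 fold change 1.56, SE 0.31, edgeR adjusted p = 0.00277). Among the members only Pttg1 had a higher mean CPM than Cdk1 in demyelination Cre+ libraries. Aurkb was at 7.02, 7.59 and 8.42 CPM in Cre- and 18.3, 18.1 and 18.1 CPM in Cre+ (log2 fold change 1.24, SE 0.27, edgeR adjusted p = 0.00558). Birc5 was at 6.30, 7.53 and 8.47 CPM in Cre- and 26.0, 24.5 and 21.9 CPM in Cre+ (log2 fold change 1.70, SE 0.30, edgeR adjusted p = 0.00132). The difference between the genotypes exceeded the spread between replicates in each of these 5 genes.

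Top2a, Foxm1 and Cdc25c passed the threshold less firmly in demyelination. Top2a was at 12.99, 16.2 and 17.1 CPM in Cre- and 49.7, 46.0 and 43.5 CPM in Cre+ libraries (log2 fold change 1.59, SE 0.42, edgeR adjusted p = 0.0266). It lost its call when any demyelination library other than Cre+ replicate 2 was left out (edgeR adjusted p = 0.0549 to 0.102). Foxm1 was at 2.41, 2.38 and 2.60 CPM in Cre- and 5.81, 6.70 and 6.37 CPM in Cre+ (log2 fold change 1.35, SE 0.33, edgeR adjusted p = 0.0108). Without the 3 libraries of very low Cx3cr1, which leaves 1 demyelination Cre+ library, Foxm1, Aurkb and Cdc25c did not pass. Their log2 fold changes there were 1.48, 1.28 and 1.52, the first 2 above those with all libraries. Cdc25c was at 1.48, 0.831 and 1.23 CPM in Cre- and 3.84, 3.30 and 3.56 CPM in Cre+ (log2 fold change 1.59, SE 0.47, edgeR adjusted p = 0.0335), and it too lost its call without any 1 library other than Cre+ replicate 2 (edgeR adjusted p = 0.058 to 0.136).

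Ncaph and Pttg1 were the members of demyelination whose genotypes overlapped. Ncaph was at 21.4, 20.0 and 26.4 CPM in Cre- and 19.6, 25.4 and 21.2 CPM in Cre+ libraries (log2 fold change -0.04, edgeR adjusted p = 0.947). Pttg1 was at 71.9, 69.6 and 60.7 CPM in Cre- and 66.2, 61.8 and 61.8 CPM in Cre+ (log2 fold change -0.09, edgeR adjusted p = 0.708). Cenpa, Ncapd2, Ckap2l, Dlgap5, Kif4, Kif15 and Mybl2 were also not called, with log2 fold changes of 0.64 to 1.83. Smc2 and Smc4, not called in naive mice, rose here (log2 fold changes 0.87 and 1.03).

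Markers of other cells moved with the genotype in demyelination. The 9 markers of neutrophils and their precursors summed to 170.2, 467.5 and 670.3 CPM in Cre- and 1182, 1079 and 919.3 CPM in Cre+ libraries. S100a8, S100a9, Camp and Ltf made up most of this sum, for example Camp at 11.89, 36.93 and 58.93 CPM in Cre- against 146.3, 131.7 and 109.4 CPM in Cre+. Mmp8, a collagenase of neutrophil granules, overlapped between the genotypes, at 7.728, 14.78 and 16.7 CPM against 6.199, 7.122 and 7.937 CPM, and Retnlg was lower in every Cre+ library, at 10.63, 21.48 and 22.51 CPM against 6.044, 5.566 and 6.533 CPM. Mpo, at 0.3289, 15.61 and 22.23 CPM against 6.703, 13.87 and 8.854 CPM, and Elane also overlapped. By edgeR 0 of the 9 were called, with 0 at an unadjusted p under 0.05, and DESeq2 called 0. The 7 markers of oligodendrocyte precursors summed to 47.3 to 54.65 CPM in Cre- against 75.37 to 115.9 CPM in Cre+. Cspg4 made up most of that sum, at 37.76, 46.9 and 33.39 CPM in Cre- and 109.2, 63.16 and 89.14 CPM in Cre+, while Vcan fell from 0.7125, 1.384 and 1.23 CPM to 0.155, 0.3302 and 0.4319 CPM, and edgeR called these 2 of the 7. Monocyte markers summed to 94.05 to 213.5 CPM and 174.7 to 211 CPM, and markers of border-associated macrophages to 172.1 to 220.2 CPM and 110.7 to 124.5 CPM. Neutrophil precursors divide in bone marrow, and the part of such cells in the members' rise was not tested. In naive Cre+ libraries the neutrophil sum was 91.26, 210.7 and 344.4 CPM, and in Cre- libraries 115.7, 344 and 99.57 CPM.

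No difference in the members' genotype effect between demyelination and naive mice was detected by the interaction test of edgeR. It called 0 of the 55, against 15.8% of all genes tested. At an unadjusted p under 0.05 there were 3 members, and DESeq2 called 3. The median difference of the log2 fold changes was 0.08. The 3 members were condensin subunits, Smc2, Ncaph and Smc4, with differences of 0.89 (edgeR adjusted p = 0.0549), 0.79 (SE 0.29, edgeR adjusted p = 0.0698) and 0.65 (SE 0.25, edgeR adjusted p = 0.0756). Mki67 differed by 0.11 (SE 0.54) and Foxm1 by -0.75 (SE 0.46). Differences well above their SE were not called either, as in Ncaph and Smc4, so the test could miss such differences in single members. Without naive Cre+ replicate 1 the count was 3, and the members called were Cenpa, Ncapd2 and Dlgap5. Without naive Cre+ replicate 2 it was also 3, but these were Ncaph, Smc2 and Smc4.

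In remyelination with tamoxifen at the start, no member was called in either direction by edgeR, with 5 at an unadjusted p under 0.05, and DESeq2 also called 0. Of all genes tested, 0.0341% were called in either direction. The median log2 fold change of the members was -0.41, against -0.04 over all genes, and 5 of the 55 had a fold change above 0. The 5 members under the unadjusted threshold were Mki67, Ccnb1, Kif11, Ube2c and Pbk, with log2 fold changes of -1.25 to -1.08 and edgeR adjusted p of 0.446 to 0.524.

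The levels were low in both genotypes of that state, and most overlapped. Mki67 was at 4.12, 7.20 and 6.63 CPM in Cre- and 2.75, 3.54 and 2.16 CPM in Cre+ libraries. Ccnb1 was at 1.96, 4.18 and 2.52 CPM in Cre- and 1.45, 1.58 and 0.80 CPM in Cre+. Top2a was at 3.83, 9.51 and 7.05 CPM in Cre- and 3.21, 4.46 and 4.00 CPM in Cre+. Mki67 and Ccnb1 were lower in all 3 Cre+ libraries, without passing the test, while Top2a overlapped. Cdk1 was at 3.24, 2.85 and 4.70 CPM in Cre- and 2.98, 3.81 and 3.04 CPM in Cre+. Aurkb was at 1.18, 3.20 and 2.77 CPM in Cre- and 1.99, 1.12 and 1.84 CPM in Cre+. Plk1 was at 1.28, 2.93 and 2.01 CPM in Cre- and 1.22, 1.58 and 1.12 CPM in Cre+. These 3 kinases overlapped between the genotypes. Birc5 was at 1.08, 2.58 and 1.68 CPM in Cre- and 1.07, 1.38 and 0.80 CPM in Cre+, and Foxm1 at 1.57, 3.11 and 3.69 CPM in Cre- and 3.36, 3.48 and 1.52 CPM in Cre+. Each of these libraries held 1893 to 2967 counts on all 55 members. Changes of low members were measured with large SEs, for example -0.66 (SE 0.41) for Plk1. In Cre- replicate 2 of this state the neutrophil markers summed to 3184 CPM, above every library except peak Cre+ replicate 3, and the members summed to 247.4 CPM.

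In remyelination with tamoxifen at the peak, 53 of the 55 members rose in Cre+ microglia and none fell, with a median log2 fold change of 3.18 (9.06-fold) against -0.01 over all genes. The same call was made for 6.99% of all genes tested. All 3 Cre+ libraries exceeded all 3 Cre- libraries in 53 members, as in 14.3% of all genes tested. The count was 51 to 53 when any 1 library of the state was left out. All 10 cyclins and mitotic kinases, all 11 spindle motors and spindle proteins, all 10 centromere, kinetochore and passenger members and all 6 midzone and cytokinesis members were called higher, with median log2 fold changes of 3.30, 3.46, 3.18 and 3.26.

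Mki67 changed most among the members. It was at 1.99, 2.26 and 3.05 CPM in Cre- and 51.1, 50.8 and 49.3 CPM in Cre+ libraries (log2 fold change 4.37, SE 0.45, edgeR adjusted p = 1.02e-05). Top2a was at 5.11, 3.39 and 3.54 CPM in Cre- and 68.3, 47.3 and 45.9 CPM in Cre+ (log2 fold change 3.76, SE 0.51, edgeR adjusted p = 0.000142). Ccnb1 was at 2.08, 1.83 and 1.40 CPM in Cre- and 27.4, 20.4 and 19.7 CPM in Cre+ (log2 fold change 3.67, SE 0.40, edgeR adjusted p = 9.98e-06). In these 3 genes the Cre+ libraries were far outside the spread of the Cre- libraries.

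Cdk1 had the smallest p-value of the 55 members in this state. Cdk1 was at 3.31, 1.91 and 3.05 CPM in Cre- and 20.8, 15.2 and 19.2 CPM in Cre+ libraries (log2 fold change 2.76, SE 0.25, edgeR adjusted p = 7.12e-07). Aurkb was at 1.61, 1.27 and 1.07 CPM in Cre- and 16.8, 11.4 and 14.2 CPM in Cre+ (log2 fold change 3.43, SE 0.34, edgeR adjusted p = 1.42e-06). Plk1 was at 1.99, 1.13 and 1.32 CPM in Cre- and 12.6, 11.6 and 15.5 CPM in Cre+ (log2 fold change 3.18, SE 0.37, edgeR adjusted p = 5.38e-06). Genotypes did not overlap in any of them. Aurka was at 0.757, 1.41 and 1.65 CPM in Cre- and 10.04, 9.81 and 13.3 CPM in Cre+ (log2 fold change 3.09, SE 0.34, edgeR adjusted p = 2.88e-06). Birc5 was at 1.04, 0.917 and 0.329 CPM in Cre- and 11.6, 9.98 and 13.9 CPM in Cre+ (log2 fold change 3.95, SE 0.41, edgeR adjusted p = 2.88e-06). Both stood several times above their controls in each Cre+ library.

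Foxm1 and the chromosome proteins varied more among themselves. Foxm1 was at 1.99, 2.82 and 1.40 CPM in Cre- and 18.5, 13.8 and 17.7 CPM in Cre+ libraries (log2 fold change 2.99, SE 0.35, edgeR adjusted p = 5.86e-06). Smc4 was at 6.44, 4.94 and 5.52 CPM in Cre- and 24.1, 20.6 and 21.1 CPM in Cre+ (log2 fold change 1.97, SE 0.20, edgeR adjusted p = 1.86e-06). Spc24 was at 0.379, 0.635 and 0.165 CPM in Cre- and 6.39, 5.16 and 7.43 CPM in Cre+ (log2 fold change 3.95, SE 0.43, edgeR adjusted p = 2.88e-06). All 3 rose with no overlap. The smallest rises that were called belonged to Incenp (1.24), the scaffold of the passenger complex, Smc2 (1.35), Mybl2 (1.39) and Cdc25b (1.40), on the log2 scale. Cdc25c had no count in Cre- replicate 1, and Kif4, a chromosome-associated kinesin, had none there either, so their fitted fold changes depend on the prior count.

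Ncaph and Pttg1 were again not called. Ncaph was at 25.5, 23.4 and 23.2 CPM in peak Cre- and 32.3, 23.1 and 29.2 CPM in peak Cre+ libraries (log2 fold change 0.23, edgeR adjusted p = 0.547). Pttg1 was at 33.2, 36.9 and 38.9 CPM in Cre- and 27.3, 37.8 and 29.7 CPM in Cre+ (log2 fold change -0.20, edgeR adjusted p = 0.318). Both pairs of groups overlapped. Without these 2 genes the summed level was 106.3 to 117.5 CPM in Cre- against 736 to 931.7 CPM in Cre+ libraries.

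**Figure D4:**
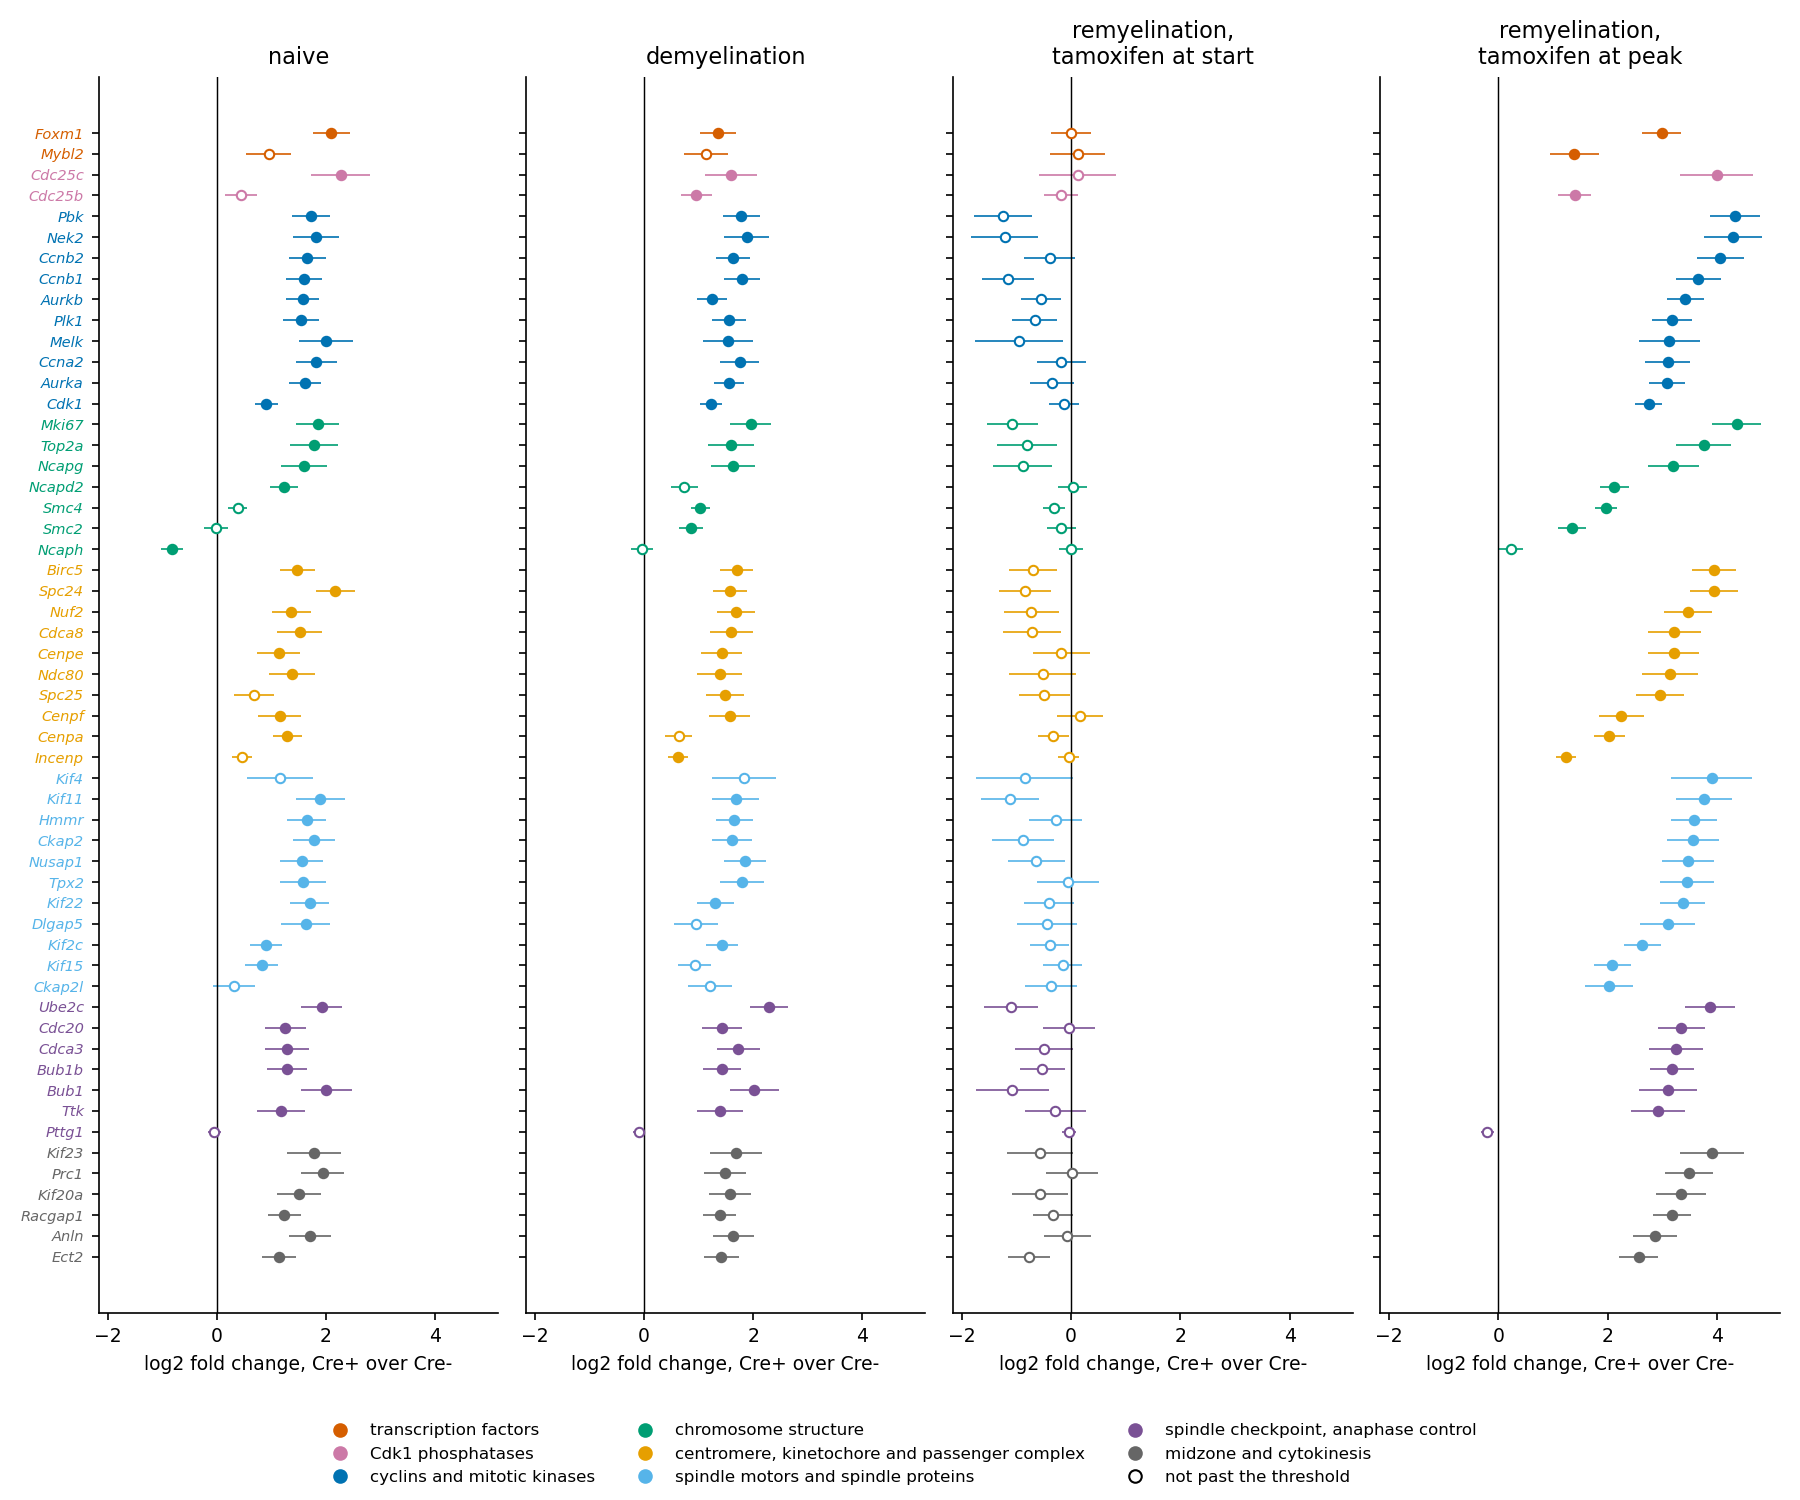
Log2 fold change of Cre+ over Cre- with its SE for the 55 members in the 4 states, ordered by role, with filled points for members past the threshold. The medians are 1.52 in naive, 1.55 in demyelination, -0.41 with tamoxifen at the start and 3.18 with tamoxifen at the peak.

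Neutrophil markers were uneven among the peak Cre+ libraries. They summed to 337.9, 319.8 and 3872 CPM in Cre+ replicates 1, 2 and 3 and to 127.3 to 207.5 CPM in Cre- libraries. By edgeR 2 of the 9 markers were called higher, and by DESeq2 9. Mpo was at 4.015, 0.6021 and 85.38 CPM in those Cre+ replicates, against 0.8521, 1.693 and 1.729 CPM in Cre-. Elane was at 4.197, 0.4301 and 54.92 CPM in Cre+, against 0.09468, 1.129 and 0.6586 CPM in Cre-. Monocyte markers summed to 91.16, 91.86 and 653.5 CPM in the same Cre+ libraries and to 54.82 to 80.19 CPM in Cre- libraries. Of the 6, 1 was called higher by edgeR, and Chil3 made up 553.4 CPM of the sum in replicate 3. The members' sum was 991.3 and 796.9 CPM in replicates 1 and 2, against 903.2 CPM in replicate 3, and 52 members were called without replicate 3. The part of the neutrophil signal that the 3 libraries share was not tested. Markers of oligodendrocyte precursors were lower, at 20.99 to 32.91 CPM in Cre+ against 35.81 to 59.05 CPM in Cre- libraries, with 1 of 7 called lower. Astrocyte markers summed to 272.9 to 345.7 CPM in Cre+ against 463.3 to 628.5 CPM in Cre-, with 2 of 6 called lower. Slc1a3 made up most of that sum, at 192.3, 219.7 and 213.9 CPM in Cre+ against 377.8, 365 and 318.9 CPM in Cre-. The other astrocyte markers were also lower in every Cre+ library. Endothelial markers summed to 28.49 to 58.83 CPM in Cre+ against 60.09 to 98.49 CPM in Cre-, with 1 of 6 called lower. The part of these lower markers in the members' rise was not tested.

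The genotype effect differed between both tamoxifen timings in 51 of the 55 members, all with a greater fold change at the peak (edgeR interaction test), against 2.87% of all genes tested called in that direction. The median difference was 3.67 on the log2 scale. Mki67 differed by 5.45 (SE 0.65, edgeR adjusted p = 0.000234), Ccnb1 by 4.83 (SE 0.63, edgeR adjusted p = 0.000272) and Cdk1 by 2.89 (SE 0.37, edgeR adjusted p = 1e-04). The members not called were Cenpf, Ncaph, Pttg1 and Mybl2.

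The genotype effect was smaller in remyelination with tamoxifen at the start than in demyelination for 23 members, and greater for none. That interaction test called 2.94% of all genes tested lower. The median difference was -1.91 on the log2 scale. Ube2c differed most, by -3.39 (SE 0.61, edgeR adjusted p = 0.00776), and Mki67 by -3.03 (SE 0.60, edgeR adjusted p = 0.0138). Top2a did not pass (-2.40, SE 0.69, edgeR adjusted p = 0.061). The count hung on single libraries. It was 1 without Cre- replicate 2 of the start group, 9 without its Cre- replicate 3, and 10, 6 and 13 without its Cre+ replicates 1, 2 and 3. It was 12, 11 and 8 without demyelination Cre- replicates 1, 2 and 3, and 5 and 15 without demyelination Cre+ replicates 1 and 3. DESeq2 called 37 members.

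Among Cre- mice, 40 members were higher and 1 lower in demyelination than in naive microglia, with a median log2 fold change of 1.18 (2.27-fold). Of all genes tested, 19.7% were called higher and 16.2% lower. Spc24 rose most (log2 fold change 2.57), followed by Dlgap5 (2.43), a spindle protein, and Cenpa (2.36), the centromeric histone. Cdk1 rose by 2.08 (SE 0.21, edgeR adjusted p = 1.87e-08), whereas Mki67 and Foxm1 did not pass (0.94 and 0.80, edgeR adjusted p = 0.0775 and 0.0764). All 10 centromere, kinetochore and passenger members rose, and 2 of the 6 midzone and cytokinesis members did. Ncaph fell by 1.16 on the log2 scale (SE 0.21, edgeR adjusted p = 0.00012). The number called in either direction was 25 without naive Cre- replicate 1 and 25 without demyelination Cre- replicate 3.

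Among Cre+ mice, 46 members were higher in demyelination than in naive microglia and none lower, with a median log2 fold change of 1.27 (2.42-fold). The share called higher over all genes tested was 26.3%. Cdk1 rose by 2.40 (SE 0.20, edgeR adjusted p = 3.39e-10) and Mki67 by 1.05 (SE 0.36, edgeR adjusted p = 0.0204). Foxm1 did not pass (0.05, edgeR adjusted p = 0.901). Fitted on the 6 Cre+ libraries alone, 17 members were called. This comparison shares the naive Cre+ libraries, replicate 1 included, with the naive genotype comparison.

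From demyelination to remyelination with tamoxifen at the start, 35 members were called lower in Cre- mice (median log2 fold change -1.32), against 28.3% of all genes tested. In Cre+ mice 54 were called lower (median -3.29), against 30.8% of all genes tested. Cdk1 fell by 2.67 in Cre- and by 4.03 in Cre+ on the log2 scale. Mki67 did not pass in Cre- mice (-0.26, edgeR adjusted p = 0.623) and fell by 3.29 in Cre+ mice. Ncaph was the member not called in Cre+ mice (0.00). Pttg1 fell by 0.91 in Cre- and by 0.85 in Cre+ mice, and under a correction for GC content and length it lost both calls and its sign turned in Cre+. The remyelination libraries are also the shallower ones, so state and sequencing depth cannot be told apart in these comparisons.

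Across the 3 states with rises, 41 members were called higher in Cre+ microglia in all of them, 9 in 2 states, 3 in 1 and 2 in none, the last being Ncaph and Pttg1. Of all genes tested, 1.68% were called higher in all 3 states. Fold changes of the 55 members were alike in order between states. Spearman's rho was 0.62 between naive and demyelination (Pearson's r = 0.75), 0.70 between naive and peak (r = 0.84) and 0.78 between demyelination and peak (r = 0.87). These are descriptions over 55 genes that are not independent replicates. The comparisons have separate Cre- and Cre+ libraries but share each gene's length and fitted dispersion.

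Levels of the members in the Cre+ groups were not in 1 order between peak and demyelination. All 3 peak libraries were below all 3 demyelination libraries in 23 members and above them in 6, and 26 overlapped. The same was true of 30% and 31.6% of all genes tested. Cdk1 averaged 53.9 CPM in demyelination Cre+ and 18.4 CPM in peak Cre+, Ube2c 27.0 and 11.7 CPM, and Ccnb2, cyclin B2, 30.8 and 13.8 CPM. The 6 members that were higher in the peak group were Mki67 (27.9 and 50.4 CPM), Foxm1 (6.29 and 16.7 CPM), Ncapd2, Anln, Kif11 and Kif23. These levels are given with no test, since the groups also differ in depth.

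**Figure D5:**
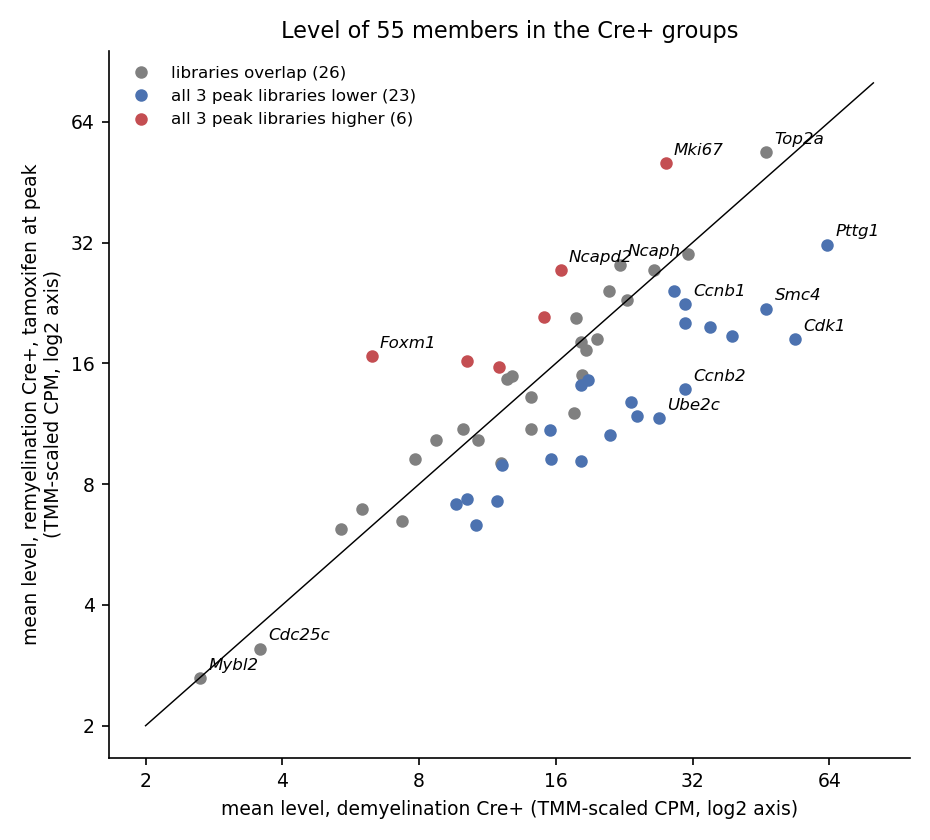
Mean level of each member in demyelination Cre+ (x axis) and peak remyelination Cre+ libraries (y axis), both in TMM-scaled CPM on log2 axes, with the line of equal levels. Cdk1 and 22 others lie below the line with no overlap between libraries, and Mki67, Foxm1 and 4 others above it.

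Other cell cycle genes rose in the same states, and their shares were not compared with those of the members by a test. The shares over all genes tested were those given above, 14.7% in naive mice, 5.69% in demyelination and 6.99% at the peak. Of 42 other spindle, kinetochore and cytokinesis genes tested, 21 rose and 2 fell in naive Cre+ microglia, 30 rose in demyelination and 38 at the peak, with median log2 fold changes of 1.10, 1.35 and 2.37. Ska3, a kinetochore-spindle linker, rose by 2.12 and 1.67 in the first 2 states on the log2 scale (edgeR adjusted p = 9.31e-05 and 0.00315). Espl1, separase, which securin holds inactive, fell in naive mice (-0.76, edgeR adjusted p = 0.000177). Of 36 S-phase and replication genes, 15 rose in naive mice, 18 in demyelination and 31 at the peak, with medians of 0.54, 0.71 and 1.35. E2f1, which drives S-phase genes, rose by 1.93 in naive mice and 1.78 at the peak (edgeR adjusted p = 8.59e-07 and 1.12e-05).

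Regulators of G1 and of mitotic entry were less uniform. Of 19 G1 cyclins, kinases, inhibitors and retinoblastoma family genes tested, 6 rose and 2 fell in naive mice, 6 rose in demyelination and 7 rose at the peak. Cdkn1a, the inhibitor p21, rose by 2.35 at the peak (SE 0.25, edgeR adjusted p = 7.46e-06), and Cdkn2c, the inhibitor p18, by 1.70 (SE 0.22, edgeR adjusted p = 2e-05). In demyelination Ccnd2, cyclin D2, rose by 1.79 (edgeR adjusted p = 0.00619). Myc fell in naive mice (-1.40, edgeR adjusted p = 4.56e-05). Of 13 gatekeepers of mitotic entry tested, 4 rose and 1 fell in naive mice, 4 rose in demyelination and 7 at the peak. The 1 that fell was Chek2, a DNA damage checkpoint kinase (-0.46, edgeR adjusted p = 0.0236). Pkmyt1 and Wee1, the kinases that hold Cdk1 inactive, rose in all 3 (log2 fold changes 1.30, 1.13 and 2.31 for Pkmyt1 and 1.197, 1.25 and 2.47 for Wee1). Of 8 MuvB and partner genes, Lin9 rose and Lin52 fell in naive mice (0.50 and -0.31, edgeR adjusted p = 0.0156 and 0.0448), and 3 rose at the peak, Lin9 most (0.94, edgeR adjusted p = 0.000476). In demyelination edgeR called 0 of the 8, with 3 at an unadjusted p under 0.05, and DESeq2 called 2. With tamoxifen at the start, the median log2 fold changes of the 5 lists were -0.35 to 0.00.

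Exons of 18 members share bases with another gene of the table, mostly on the other strand, and 7 share at least 10% of their exon bases. No source used here gives the strand setting of the counting. Values of Kif20a (29.3% shared, with Cdc23), Ube2c (22.8%, with Tnnc2), Kif4, Ncapg, Cdc25c, Ccna2 and Prc1 may hold counts of their neighbours.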

How the data were processed

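The 24 libraries were mouse RNA-seq of sorted microglia. The submitters' processing notes name Trimmomatic 0.36, STAR 2.5.2b, featureCounts of Subread 1.5.2, DESeq2 and GRCm38. The deposited table holds raw read counts per gene, as whole numbers. Its Ensembl identifiers were matched to GENCODE M21 symbols (49056 of 49315), and the 259 without a symbol stayed in the fit.

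Counts were scaled by TMM and fitted with edgeR 4.0.16 (quasi-likelihood F test, robust, R 4.3.3, limma 3.58.1) over all 24 libraries in 8 groups, with 16 residual degrees of freedom, after filterByExpr kept 17579 genes. The Benjamini-Hochberg threshold was 0.05 over all genes tested in each of 11 comparisons. The p-values measure the spread between libraries, which the study text calls biological replicates and whose animals the labels do not number. All 8 groups shared 1 spread per gene, so p-values in naive mice do not rest on the wider naive Cre+ spread alone. The scripts were tested on simulated data. Depth of 8.87 to 44.53 M counts limits members near 0. The module score used a pseudocount of 1.

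The members and the other gene lists were chosen with earlier results of these data known. Members followed by library were Mki67, Top2a, Ccnb1, Cdk1, Aurkb, Plk1, Birc5 and Foxm1, the 3 called members with the largest rise or fall in naive mice and in demyelination, those called against the direction of most, and in remyelination up to 6 called members with the smallest p. From the other lists, up to 4 genes with the smallest p were named. Others named, such as Pttg1, Pbk, Nek2 and Incenp, were chosen after their values were seen. Alternatives were other scaling, no filter, DESeq2 1.42.0, a replicate block, a correction for GC content and length (splines with 5 degrees of freedom), only the groups compared and leaving out libraries. No p-value was computed for the score or adjusted over the list alone.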

Additional observations from a re-analysis of the deposited data

Results flagged for a closer look

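The genotype effect differed between states by the interaction test of edgeR. From demyelination to remyelination with tamoxifen at the start it was smaller in 23 members, and on the log2 scale the difference was -3.03 for Mki67, -2.96 for Ccnb1, -1.36 for Cdk1, -1.8 for Aurkb, -2.22 for Plk1 and -2.4 for Birc5. Of 20 alternative fits, Cdk1 lost this call in 7 (edgeR adjusted p = 0.0511 to 0.0911), Aurkb in 10 (0.056 to 0.127), Plk1 in 4 (0.052 to 0.0937), Birc5 in 2 (0.0529 and 0.092) and Mki67 and Ccnb1 in 1 each (0.0549 and 0.0618). Leaving out Cre- replicate 2 of the group with tamoxifen at the start was among these fits for all 6. From tamoxifen at the start to tamoxifen at the peak of cuprizone it was greater in 51 members, and the difference was 5.45 for Mki67, 4.57 for Top2a, 4.83 for Ccnb1, 2.89 for Cdk1, 3.98 for Aurkb, 3.84 for Plk1, 4.65 for Birc5 and 2.99 for Foxm1. Both sets of differences use the same libraries with tamoxifen at the start, so they are not independent of each other. In that group the Cre- replicates had members' sums of 185.8, 247.4 and 233.4 CPM.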

How the results depend on the processing

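Counts of members called were within 1.5 times the reported count in 136 alternative fits and outside it in 31. No difference of the score turned its direction. Nor did any member of the rule for following by library where the reported or the alternative fit called it. Sign changes without a call were not counted. Pttg1, which that rule did not choose, turned its sign as given above. With 1 library left out, the counts were 30 to 52 in naive mice, 25 to 45 in demyelination, 0 with tamoxifen at the start, 51 to 53 at the peak, 25 to 31 from naive to demyelination in Cre-, 39 to 50 in Cre+, 27 to 34 from demyelination to remyelination in Cre- and 54 in Cre+. For differences of the genotype effect they were 0 to 3 (demyelination minus naive), 1 to 23 (start minus demyelination) and 42 to 51 (peak minus start). Fitted on only the groups compared, naive mice gave 14, the change from naive to demyelination in Cre+ 17, and start minus demyelination 43. Start minus demyelination gave 35 without the filter and 37 by DESeq2. Demyelination minus naive gave 3 with DESeq2's size factors in edgeR, 3 without the filter, 3 by DESeq2, 2 with the correction for GC content and length, and 1 without the 3 libraries of very low Cx3cr1. The causes were not tested.

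The difference of the module score was 0.85 in naive mice, 1.26 in demyelination, -0.27 with tamoxifen at the start and 2.34 at the peak. With 1 library left out, an alternative chosen after seeing the data, it was 0.56 to 1.36 in naive mice (0.56 without Cre+ replicate 2 and 1.36 without Cre+ replicate 1), 1.23 to 1.30, -0.41 to -0.17 and 2.27 to 2.42. With a pseudocount of 0.25 the difference was 1.01 in naive mice, 1.38 in demyelination and 2.79 at the peak, and with 4 it was 0.55, 0.97 and 1.55. In demyelination it was 1.33 without the 5 most abundant members and 1.19 without TMM scaling.

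Same-numbered Cre- and Cre+ libraries correlated by -0.04 to 0.29 in their deviations from the group means, and in naive mice and at the peak each correlated best with its own number, which is a hint from the data only. The numbers were not taken to pair the animals. With the replicate block, 46, 47, 0 and 53 members were called in the 4 states, 28 in start minus demyelination, where Aurkb lost its call (edgeR adjusted p = 0.0816), 48 in peak minus start, and 4 in demyelination minus naive (3 with the block and the GC content and length correction).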
